A study of Mus musculus with 4 samples.

Results

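Regulators of G protein signalling (RGS proteins) are the switch-off enzymes of heterotrimeric G proteins. The 4 family members described here, Rgs1, Rgs2, Rgs10 and Rgs16, are the rows of that name in a table of 14721 genes counted in single T cells, and each was followed across every cell label and both RNA libraries. When a chemokine or another ligand activates its receptor, the receptor loads the G protein alpha subunit with GTP, and the alpha subunit signals until the GTP is hydrolysed. An RGS protein binds the active alpha subunit and speeds that hydrolysis, which shortens and dampens the signal. In T cells the best known consequence is weaker migration towards chemokines, and several members are induced or shut off when T cells are activated.

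Mice carried subcutaneous B16F10 melanoma and received cyclophosphamide at 250 mg/kg as a single dose, followed 1 day later by intravenous transfer of CD4 T cells whose transgenic receptor sees TRP1, a melanocyte protein. Tissue was taken on day 11 after transfer. All 4 samples bear the strain name RAG1- BW TRP-1 TCR and the treatment entry "untreated" although the protocol describes cyclophosphamide, and the sort is described for CD45.1 donor cells that were CD4+ or CD4+CD8+. There was 1 tumor and 1 lymph node RNA library, each with a receptor library of the same cells. The lymph node library is titled endogenous, and it carries the same source entry (B16 melanoma resections) as the tumor library. How many animals were used, and whether they were pooled, is among the details not given in the sources used here.

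Counts are of unique molecular identifiers (UMIs, each a tag for 1 captured RNA molecule). There were 33147030 of them in 5570 tumor cells (median 5862.5 per cell) and 29067001 in 4988 lymph node cells (median 5596.5). The depositors' labels split the tumor cells into 2693 Tdp, 2451 Cd4, 406 Tcell, 19 Treg and 1 Cd8, and the lymph node cells into 2788 Cd8, 1873 Cd4, 321 Treg and 6 Tdp. Tdp is not spelled out in the labels, and 2028 of the 2693 tumor Tdp cells held UMIs of Cd4 together with Cd8a or Cd8b1. The tumor Tcell label was shallow, with a median of 2040 UMIs. A transgenic receptor chain was called in 5540 of 5570 tumor cells and in 0 lymph node cells, and 36 cell barcodes occurred in both libraries. Tissue, origin of the receptor and library preparation differed together between tumor and lymph node and cannot be told apart. Because each tissue had 1 RNA library, no test between conditions was possible. All intervals are exact 95% intervals that cover counting error only.

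The labels were read against marker genes. Foxp3, the defining factor of regulatory T cells, stood at 394 CPM (counts per 1000000 UMIs of the group) in lymph node Treg cells and at 3.56 CPM in lymph node Cd4 cells, and 237 of the 321 Treg cells held a Foxp3 UMI. The same Treg label also held Cd8a at 105 CPM, which regulatory T cells do not usually carry. Defining markers of other cell types were at or near 0: Csf1r of macrophages reached at most 0.215 CPM, Cd79a of B cells at most 2.10 CPM and Pmel of melanoma at most 0.222 CPM. Cd79b of B cells reached 19.3 CPM in lymph node Cd8 and 28.4 CPM in lymph node Treg cells. The 8 myeloid genes summed to 160.1 CPM in tumor Tdp, 164 CPM in tumor Cd4, 72.4 CPM in lymph node Cd8, 72.6 CPM in lymph node Cd4 and 159 CPM in lymph node Treg cells, nearly all of it Cst3, which encodes the protease inhibitor cystatin C.

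Rgs1, Rgs2 and Rgs16 lie on mouse chromosome 1 (build GRCm38.p6, which is mm10). Rgs2 occupies bases 143999338 to 144004149 and Rgs1 bases 144244669 to 144249104, with 240.5 kb between them, and Rgs16 lies at 153740353 to 153745468. Rgs10 lies on chromosome 7 at 128373621 to 128419506. The stretches of 250 bases just before the RefSeq transcription start are shown for Rgs16, Rgs2 and Rgs10, because Rgs16 and Rgs2 were higher in tumor cells that held an early receptor-signal gene and Rgs10 was not. The RefSeq promoter table (GRCm38.p6) held these 3 of the 4 members, and its start of Rgs10 lies inside the full span of that gene. Each sequence is written 5′ to 3′ on the strand of its gene, and capitals mark matches on either strand to CCAAT, to the TATA-like strings ATAAAA and TTAAAA, to the GC box GGGCGG and to TGACG, a short site bound by cyclic AMP responsive factors.
Rgs16, chr1:153740103-153740352, plus strand: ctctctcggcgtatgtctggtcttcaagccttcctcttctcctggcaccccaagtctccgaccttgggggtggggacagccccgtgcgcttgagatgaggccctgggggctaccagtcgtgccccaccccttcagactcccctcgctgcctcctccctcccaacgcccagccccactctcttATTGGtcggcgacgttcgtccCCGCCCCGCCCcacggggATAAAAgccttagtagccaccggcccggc
Rgs2, chr1:144004150-144004399, minus strand: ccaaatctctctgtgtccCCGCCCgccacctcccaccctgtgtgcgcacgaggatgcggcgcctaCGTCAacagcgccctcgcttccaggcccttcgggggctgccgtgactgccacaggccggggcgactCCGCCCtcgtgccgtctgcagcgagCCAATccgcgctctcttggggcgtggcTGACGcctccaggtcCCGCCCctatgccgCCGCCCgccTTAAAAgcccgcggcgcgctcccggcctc
Rgs10, chr7:128418173-128418422, minus strand: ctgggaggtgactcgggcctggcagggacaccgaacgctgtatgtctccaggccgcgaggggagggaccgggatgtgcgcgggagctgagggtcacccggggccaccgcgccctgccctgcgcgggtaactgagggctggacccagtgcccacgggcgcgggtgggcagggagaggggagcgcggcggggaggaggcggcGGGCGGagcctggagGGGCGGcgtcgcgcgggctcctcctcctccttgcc

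Rgs16 and Rgs2 each held a TATA-like string at the same place, 29 to 24 bases before the start (ATAAAA in Rgs16 and TTAAAA in Rgs2), and each held a CCAAT box. Rgs10 held neither. ATAAAA occurred in 17.0%, TTAAAA in 17.7% and CCAAT in 33.8% of the 32851 RefSeq promoters cut to the same length. These shares count a match at any place and on either strand. The share of promoters with either TATA-like string at that same place was not computed. GC boxes were present 2 times in Rgs16, with 1 base shared between the matches, 4 times in Rgs2 and 2 times in Rgs10, and occurred in 32.7% of promoters. TGACG was present 2 times in Rgs2 and in 17.8% of promoters. No match was found in any of the 3 stretches to TATAAA (12.4% of promoters), to the AP-1 site TGANTCA (6.75%), or to GGAAA, the core of NFAT sites (55.6%). The GC content was 66.4% in Rgs16, 72.4% in Rgs2 and 76.4% in Rgs10, against a median of 52.4% over all promoters. These matches describe the letters only.

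Rgs16, an RGS protein of Gi and Gq signalling that is switched on in activated T cells, separated the libraries by far the most. Its level was 896 CPM in tumor Tdp, 940.2 CPM in tumor Cd4 and 778 CPM in tumor Tcell cells. In the lymph node it was 12.0 CPM in Cd8, 4.45 CPM in Cd4 and 70.9 CPM in Treg cells. Every tumor label with more than 100 cells lay above every lymph node label, and no interval of the first group touched one of the second. At least 1 Rgs16 UMI was seen in 88.9% (87.6 to 90.0%) of tumor Tdp cells and in 88.4% (87.0 to 89.6%) of tumor Cd4 cells. In lymph node Cd4 cells it was seen in 16 of 1873 cells, or 0.854% (0.489 to 1.38%), at a median depth of 4763 UMIs against 5533 in tumor Cd4 cells.

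**Figure D1:**
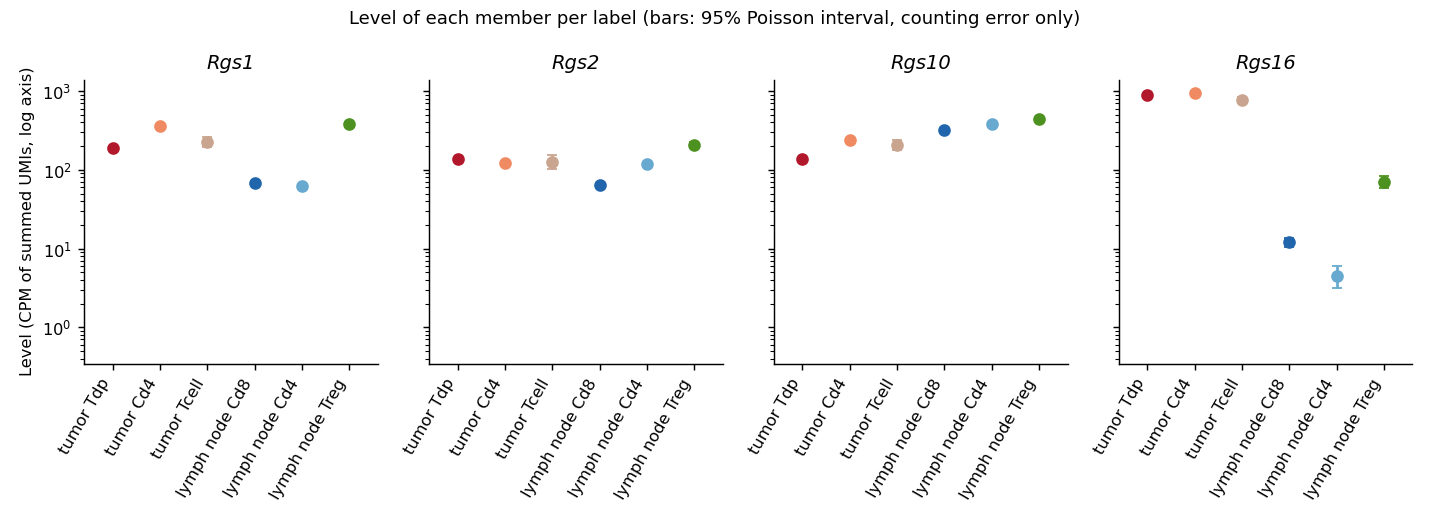
Level of each member in CPM (log axis) for the 6 labels with more than 100 cells, 1 panel per gene; points are summed UMIs scaled to the label's total and bars are exact Poisson intervals. The 3 tumor labels of Rgs16 lie between 778 and 940.2 CPM, above 70.9 CPM in lymph node Treg cells, while the Rgs10 points of the lymph node lie above those of the tumor.

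The gap between tissues was also present at equal depth. With every cell thinned to 2000 UMIs, an Rgs16 UMI was seen in 70.5% of tumor Tdp and 71.6% of tumor Cd4 cells, against 1.70% of lymph node Cd8 cells, 0.663% of lymph node Cd4 cells and 10.0% of lymph node Treg cells. Thinning left out 30 tumor Tdp, 33 tumor Cd4, 26 lymph node Cd8, 62 lymph node Cd4 and 12 lymph node Treg cells. Free RNA in the droplets can place a UMI in any cell. No tumor label could be taken to lack Rgs16, so its free RNA background was not measured there, and in the lymph node the share differed between labels by more than counting error.

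Among tumor cells Rgs16 was present in quantity as well as often. Between 5 and 9 UMIs were found in 27.3% of tumor Tdp and 28.2% of tumor Cd4 cells, and 10 or more in 21.4% and 16.6%, with a highest count of 52 in a single Cd4 cell. The few lymph node UMIs were unevenly placed. Of the 40 Rgs16 UMIs in lymph node Cd4 cells, 11 sat in 1 cell, and without that cell the level was 3.23 CPM in place of 4.45. None of the 16 positive Cd4 cells held a Foxp3 UMI, while 54 of the 71 positive Treg cells did. These counts follow the labels, as 22 of all 1873 Cd4 cells and 237 of all 321 Treg cells held one. Within Treg cells, the Rgs16 ratio of cells with over cells without a Foxp3 UMI was 0.949 (0.633 to 1.46). At 2000 UMIs it was 0.583 (0.289 to 1.13). The 6 lymph node cells labelled Tdp held 15 Rgs16 UMIs in 3 cells, of which 12 were in 1 cell.

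Rgs1, which limits the response of T and B cells to chemokines and is abundant in lymphocytes that stay in tissue, separated the labels in another way. It stood at 191 CPM in tumor Tdp, 364 CPM in tumor Cd4 and 227 CPM in tumor Tcell cells, and at 67.5 CPM in lymph node Cd8, 61.5 CPM in lymph node Cd4 and 379 CPM in lymph node Treg cells. Lymph node Treg and tumor Cd4 cells were the highest and their intervals overlapped (352 to 407 and 354 to 374 CPM). Tumor Tcell and Tdp cells came next, with intervals that met at their ends (196 to 261 and 185 to 198 CPM), and lymph node Cd8 and Cd4 cells were the lowest, again with overlapping intervals. An Rgs1 UMI was seen in 68.2% of lymph node Treg, 58.5% of tumor Cd4, 50.8% of tumor Tdp, 26.4% of lymph node Cd8 cells and 18.8% of lymph node Cd4 cells. After thinning to 2000 UMIs the shares were 38.8%, 37.0%, 25.6%, 11.4% and 11.0%. The 19 tumor Treg cells held only 5 Rgs1 UMIs, or 56.3 CPM (18.3 to 131), and too few cells carried that label for a ratio.

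Rgs2, a regulator with a preference for Gq alpha subunits, was flatter. It was measured at 137 CPM in tumor Tdp, 122 CPM in tumor Cd4 and 126 CPM in tumor Tcell cells, and at 63.5 CPM in lymph node Cd8, 117 CPM in lymph node Cd4 and 207 CPM in lymph node Treg cells. Lymph node Treg cells were the highest and lymph node Cd8 cells the lowest, and both stood clear of the other labels. Between them, neighbours in the order Tdp, Tcell, tumor Cd4 and lymph node Cd4 overlapped within their counting intervals, although tumor Tdp (131 to 142 CPM) lay above tumor Cd4 cells (116 to 128 CPM). An Rgs2 UMI was seen in 44.9% of tumor Tdp and 38.1% of tumor Cd4 cells, against 27.4%, 35.9% and 51.1% of lymph node Cd8, Cd4 and Treg cells.

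Rgs10, a small Gi regulator of a different RGS subfamily that also contains Rgs12 and Rgs14, ran the other way. Its levels were 137 CPM in tumor Tdp, 236 CPM in tumor Cd4 and 208 CPM in tumor Tcell cells, and 316 CPM in lymph node Cd8, 387 CPM in lymph node Cd4 and 436 CPM in lymph node Treg cells. All 3 lymph node labels lay above all 3 tumor labels, and the only neighbours with overlapping intervals were tumor Cd4 and tumor Tcell cells. The share of cells with an Rgs10 UMI was 51.6% in tumor Tdp and 64.1% in tumor Cd4 cells, against 76.5% in lymph node Cd8, 76.9% in lymph node Cd4 and 80.4% in lymph node Treg cells. Thinned to 2000 UMIs, the shares were 24.0%, 34.5%, 42.2%, 50.8% and 54.4% in the same order.

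**Figure D2:**
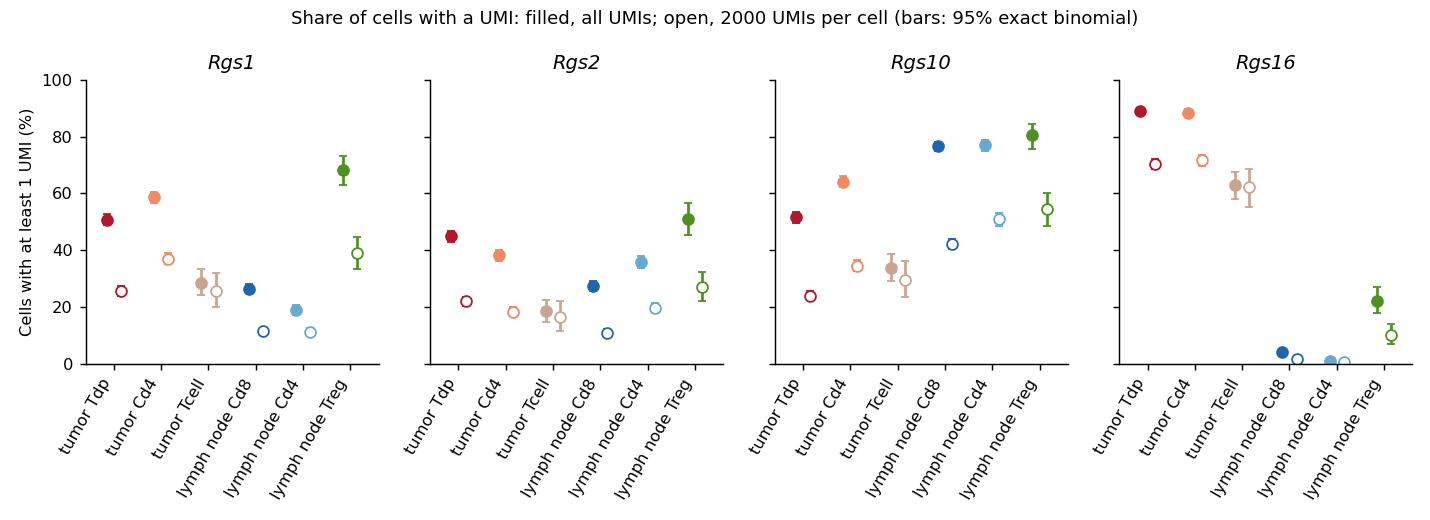
Percent of cells with at least 1 UMI of each member per label; filled points use all UMIs, open points use cells thinned to 2000 UMIs, and bars are exact binomial intervals. Rgs16 keeps over 70% of tumor Tdp and Cd4 cells at the thinned depth and 0.663% of lymph node Cd4 cells.

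The number of the 4 genes seen in a cell summarises these levels. Thinned to 2000 UMIs, a tumor Cd4 cell held UMIs of 1.61 of the 4 genes on average and a tumor Tdp cell of 1.42, against 0.821 in Cd4, 0.663 in Cd8 and 1.30 in Treg cells of the lymph node. Most of the gap to lymph node Cd4 and Cd8 cells was Rgs16. At this depth Rgs16 was seen in 71.6% of tumor Cd4 and 70.5% of tumor Tdp cells. In lymph node Cd4, Cd8 and Treg cells its share was 0.663%, 1.70% and 10.0%. No member was seen in 10.1% of tumor Cd4 and 13.3% of tumor Tdp cells, and in 36.5% of Cd4 and 46.1% of Cd8 cells of the lymph node. All 4 were seen in 1.99% of tumor Cd4, 1.09% of tumor Tdp and 0.647% of lymph node Treg cells. Within a label, Pearson's r over cells between any 2 members lay between −0.07 and 0.12 across the 6 labels at all UMIs. At 2000 UMIs it reached 0.17, for Rgs1 and Rgs16 in tumor Tcell cells. These values describe sparse counts that share a library and a depth. In tumor Tdp cells Rgs1 and Rgs2 had an r of 0.09, where the highest for Rgs1 over 6625 genes was 0.10. Low values therefore do not show that the members are unrelated. In tumor Cd4 cells thinned to 2000 UMIs the variance of Rgs1 was 2.41 times its mean, against 1.40 for Rgs2, 1.24 for Rgs10 and 2.51 for Rgs16, where a value of 1 is what random sampling of equal cells gives and the value rises with the mean. The 10% of cells with most UMIs of a gene held 52.5% of Rgs1, 65.4% of Rgs2, 48.2% of Rgs10 and 34.5% of Rgs16 UMIs. This share tends to be larger where the mean is lower, so it does not rank the genes by unevenness. The means were 0.718, 0.242, 0.473 and 1.96 UMIs per cell in the same order.

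To compare groups, UMIs were summed per group, and a gene was counted if it had 20 CPM or more on either side and called at a 2-fold difference of CPM + 1. Between tumor Tdp and tumor Cd4 cells, which share a library, tissue and transgenic receptor, 0 of the 4 members were called, where 1.18% of 4820 counted genes were called higher in Tdp cells, 2.3% lower and 3.49% in either direction. Rgs1 and Rgs10 nevertheless lay far down the ranking. Rgs1 was 1.90-fold (1.82 to 1.99) and Rgs10 1.73-fold (1.64 to 1.82) lower in Tdp cells, which placed them 129th and 184th from the lowest. Rgs2 was 1.12-fold (1.05 to 1.19) higher in Tdp cells. Rgs16 differed least, with 1.05-fold (1.03 to 1.07) more in Cd4 cells, and its sign turned under scaling by trimmed mean of M values (TMM), where the log2 ratio went from −0.07 to 0.05.

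Rgs1 and Rgs10 were also read by coreceptor UMIs within each label. The 222 Cd4-labelled cells that held UMIs of Cd4 and of Cd8a or Cd8b1 had Rgs1 at 366 CPM (336 to 397), close to 364 CPM in the 1846 Cd4-labelled cells with Cd4 UMIs alone. The 2028 Tdp-labelled double positive cells had 189 CPM (182 to 197). In the other direction, the 86 Tdp-labelled cells with Cd4 UMIs alone had Rgs1 at 321 CPM (272 to 376), above the Tdp-labelled double positive cells. Rgs10 showed 208 CPM in the Cd4-labelled double positive cells, 134 CPM in Tdp-labelled double positive cells and 174 CPM in the Tdp-labelled cells with Cd4 alone. The 554 Tdp-labelled cells with Cd8a or Cd8b1 alone held 171 CPM of Rgs1 and 139 CPM of Rgs10, near the double positive cells of that label. Rgs16 in these Tdp-labelled classes was 776 CPM with Cd4 alone, 886 CPM in double positive cells and 954 CPM with Cd8a or Cd8b1 alone. It was 945 CPM in Cd4-labelled cells with Cd4 alone and 866 CPM in the double positive cells of that label. Depth differed between the classes, with medians of 5373, 6891.5 and 5810.5 UMIs in Tdp-labelled cells, in the order given. In Cd4-labelled cells they were 5602.5 and 6459 UMIs. Rgs16 was lower in deeper cells of both labels, and the classes were not compared at equal depth. Free coreceptor RNA and doublets can place a cell in a class, and their part was not tested.

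**Figure D3:**
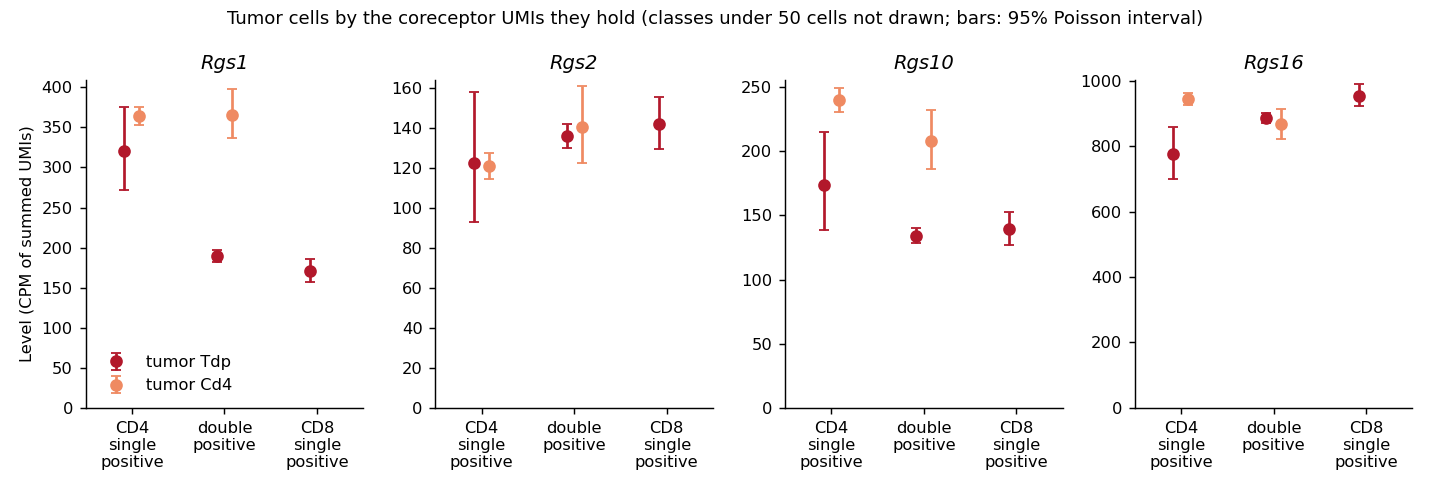
Level of each member in CPM in tumor cells by the coreceptor UMIs they hold and by label (dark red, Tdp; orange, Cd4); bars are exact Poisson intervals and classes under 50 cells are not drawn. Rgs1 is at 366 CPM in Cd4-labelled and at 189 CPM in Tdp-labelled double positive cells, while Rgs16 in cells with Cd4 alone is at 776 CPM in Tdp-labelled and 945 CPM in Cd4-labelled cells.

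Tumor Cd4 against lymph node Cd4 cells compares the same label across tissues. Rgs1 and Rgs16 were called higher in tumor, 2 of the 4 members, where 14.8% of 5136 counted genes were called higher, 6.21% lower and 21% in either direction. Rgs16 was 211-fold (155 to 296) higher and ranked 6th from the top. Without the lymph node cell that held 11 UMIs the ratio was 291-fold (203 to 435), and without the cells that held 2 or more UMIs of other cell types, nearly all for Cst3, its log2 ratio was 8.13 in place of 7.43. With a pseudocount of 10 it was 6.04. Rgs1 was 5.91-fold (5.42 to 6.47) higher and ranked 229th. Rgs2 differed by 1.04-fold, with an interval of 0.964 to 1.13, and its log2 ratio of 0.06 became −0.06 under TMM scaling and −0.25 with receptor, mitochondrial and ribosomal protein genes left out of the total. Rgs10 was 1.64-fold (1.56 to 1.72) lower in tumor and not called, and it passed 2-fold (log2 ratio −1.02) when those genes were left out of the total.

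Tumor Tdp against lymph node Cd8 cells sets the CD8-bearing cells of each tissue side by side. All 4 members were called, 3 higher and 1 lower in tumor, where 11.4% of 4837 counted genes were called higher, 5.13% lower and 16.5% in either direction. Rgs16 was 74.5-fold (65.1 to 85.5) higher and ranked 9th, with a log2 ratio of 6.10, or 5.36 with a pseudocount of 10. Rgs1 was 2.83-fold (2.65 to 3.02) and Rgs2 2.15-fold (2.01 to 2.31) higher. Rgs10 was 2.31-fold (2.21 to 2.43) lower. Rgs2 stood close to the threshold and was not called with a pseudocount of 10 (log2 ratio 0.996) or with receptor, mitochondrial and ribosomal protein genes left out of the total (0.79). Over the whole libraries, Rgs1 (3.07-fold) and Rgs16 (64.8-fold) were called higher in tumor, where 11.5% of 4978 counted genes were called higher, 5.18% lower and 16.7% in either direction, and Rgs10 (1.91-fold lower) and Rgs2 (1.45-fold higher) were not. The log2 ratio of Rgs16 there was 5.92, or 5.26 with a pseudocount of 10. Rgs10 passed 2-fold there under TMM scaling (log2 ratio −1.003) and with the smaller total (−1.22).

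**Figure D4:**
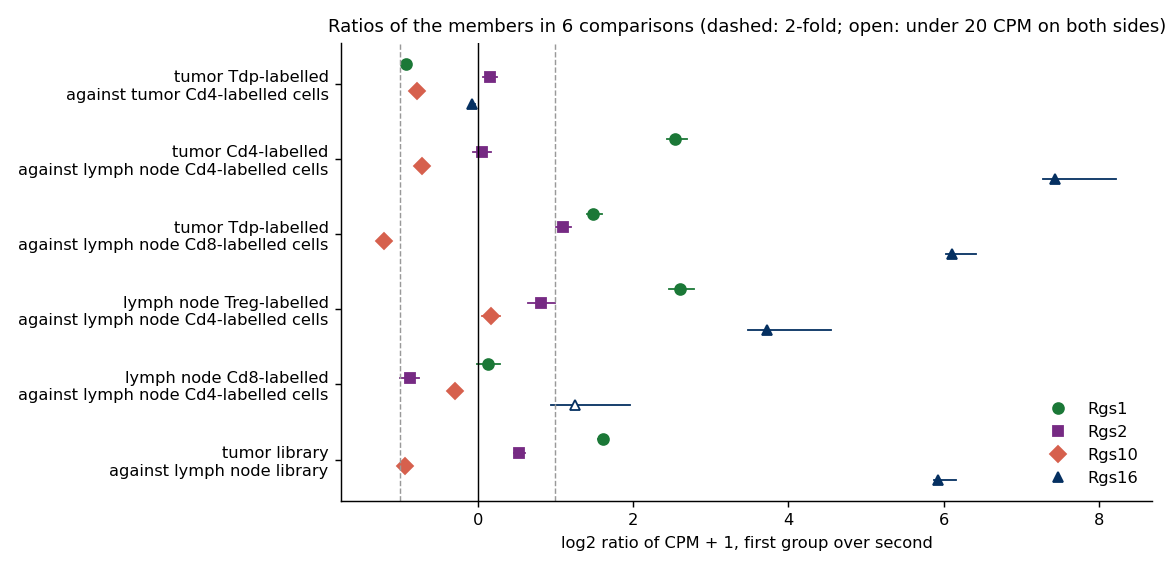
Log2 ratio of CPM + 1 of each member in the 6 comparisons, first group over second; horizontal bars are exact intervals of the ratio without the added 1, dashed lines mark 2-fold, and the open triangle marks Rgs16 where both sides were under 20 CPM. Rgs16 reaches 7.43 in Cd4-labelled cells across tissues and −0.07 between the tumor labels.

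Within the lymph node, Treg cells were compared with Cd4 cells of the same library. Rgs1 and Rgs16 were called higher in Treg cells, 2 of the 4 members, where 10.6% of 5188 counted genes were called higher, 1.41% lower and 12% in either direction. Rgs1 was 6.16-fold (5.51 to 6.89) and Rgs16 15.9-fold (11.1 to 23.3) higher, while Rgs2 was 1.77-fold (1.57 to 1.99) and Rgs10 1.13-fold (1.04 to 1.22) higher. The log2 ratio of Rgs16 was 3.72, or 2.49 with a pseudocount of 10 and 4.56 without the cells that held 2 or more UMIs of other cell types. The Rgs10 ratio turned below 0 under TMM scaling (log2 −0.16) and with the smaller total (−0.12). Treg cells with and without a Foxp3 UMI did not differ in Rgs1 beyond counting error (381 and 371 CPM, ratio interval 0.859 to 1.23), and neither did those with and without a Cd8a or Cd8b1 UMI (387 and 374 CPM, ratio interval 0.884 to 1.21). Rgs10 was 398 CPM with and 567 CPM without a Foxp3 UMI, a ratio of 0.701 (0.603 to 0.817), but 0.898 (0.697 to 1.15) at 2000 UMIs. For Rgs2 the ratio of cells with over cells without a Foxp3 UMI was 0.781 (0.624 to 0.984), and 0.564 (0.381 to 0.824) at 2000 UMIs. Rgs1 was also higher in the 22 lymph node Cd4 cells that held a Foxp3 UMI, at 127 CPM against 60.7 CPM in the other 1851, with a ratio interval of 1.11 to 3.60. That level rested on 13 UMIs. At 2000 UMIs, 12 such cells with 5 Rgs1 UMIs were left, and the ratio interval was 1.03 to 7.62.

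Lymph node Cd8 against lymph node Cd4 cells gave 0 of 3 counted members called, where 2.12% of 4530 counted genes were called higher, 1.43% lower and 3.55% in either direction. Rgs2 came nearest, 1.84-fold (1.69 to 2.01) lower in Cd8 cells and 85th from the lowest. Rgs10 was 1.22-fold lower and Rgs1 1.10-fold higher, the latter with an interval that included 1. Rgs16 was under 20 CPM on both sides and was not counted.

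Cells of 1 label were next split by whether they held a UMI of a marker gene, and each split was repeated at 2000 UMIs per cell, because deeper cells hold a marker more often. The clearest split was by Nr4a1, an immediate early gene of T cell receptor signalling. In tumor Tdp cells thinned to 2000 UMIs, Rgs16 was 1127 CPM in the 1156 cells with an Nr4a1 UMI and 790.0 CPM in the 1507 cells without, or 1.43-fold (1.35 to 1.51). In tumor Cd4 cells the values were 1141 and 816 CPM, or 1.40-fold (1.32 to 1.48). Rgs2 went the same way, at 167 against 131 CPM in Tdp cells and 142 against 98.4 CPM in Cd4 cells. Rgs1 and Rgs10 did not: their ratios were 1.00 and 1.01 in Tdp and 1.02 and 0.896 in Cd4 cells, each with an interval that included 1.

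Counting how many of Nr4a1, Nr4a2 and Nr4a3 a cell showed, a measure added after the data were seen, gave a graded picture. In thinned tumor Tdp cells Rgs16 was 742 CPM with none of the 3 genes, 863 CPM with 1, 1108 CPM with 2 and 1226 CPM with 3. In tumor Cd4 cells it was 727, 904, 1187 and 1211 CPM. Without thinning the levels were 556, 715, 889 and 1034 CPM in Tdp cells, whose median depth went from 5421 UMIs with none to 7082 with 3. Rgs2 went from 94.7 to 147, 165 and 231 CPM in Tdp cells and from 83.5 to 113, 150.0 and 141 CPM in Cd4 cells. Rgs1 stayed between 189 and 197 CPM in Tdp cells, and in Cd4 cells it was 369, 376, 360.0 and 264 CPM. Rgs10 stayed between 134 and 154 CPM in Tdp cells and between 192 and 248 CPM in Cd4 cells. Lymph node Cd8 cells showed a like step for Rgs2, from 52.4 CPM with none of the 3 genes to 98.0 CPM with 2, and so did lymph node Treg cells, from 152 CPM to 320.3 CPM. Lymph node Cd4 cells showed none, with 126, 117 and 114 CPM of Rgs2 for 0, 1 and 2 of the genes. Rgs1, level in tumor Tdp cells, rose in lymph node Cd8 cells, at 65.3, 76.9 and 116 CPM for 0, 1 and 2 of the genes. Only 29 lymph node Cd8 cells showed all 3. Rgs1 was 57.3, 72.8 and 60.7 CPM in lymph node Cd4 cells and 468, 368 and 344 CPM in lymph node Treg cells. Rgs16 also rose in lymph node Cd8 cells, at 8.50, 9.42 and 21.6 CPM, from only 25, 19 and 11 UMIs. Without thinning it was 5.66, 7.62, 16.2 and 36.3 CPM there for 0, 1, 2 and 3 of the genes. In thinned lymph node Treg cells Rgs16 was 57.0, 59.2 and 85.9 CPM. In lymph node Cd4 cells it was 1.93, 9.03 and 3.57 CPM, from 3, 16 and 1 UMIs. Early response genes are also induced while tissue is dissociated, and that part was not tested.

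**Figure D5:**
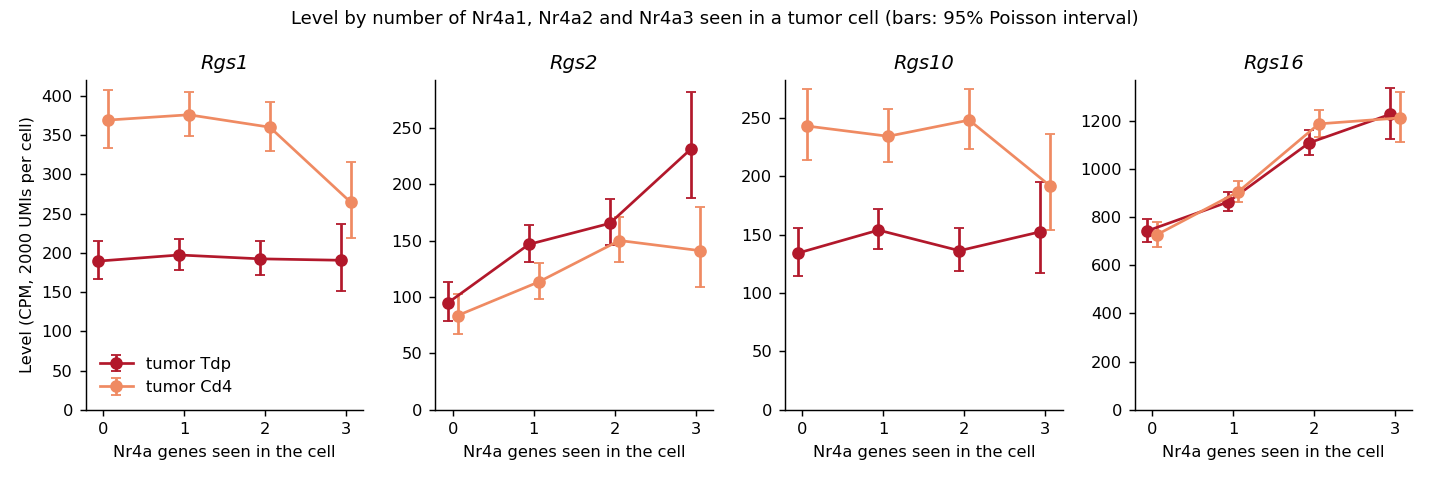
Level of each member in CPM in tumor cells thinned to 2000 UMIs, by how many of Nr4a1, Nr4a2 and Nr4a3 the cell showed; bars are exact Poisson intervals. Rgs16 goes from 742 to 1226 CPM in Tdp and from 727 to 1211 CPM in Cd4 cells, while Rgs1 in Tdp cells stays between 189 and 197 CPM.

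Other splits of tumor Cd4 cells touched Rgs1 and Rgs10. Cells with a UMI of Il21, the helper cytokine, had more Rgs1, at 530 against 344 CPM, or 1.54-fold (1.42 to 1.66), and 1.42-fold (1.18 to 1.71) at 2000 UMIs. Cells with a UMI of Gzmb, the cytotoxic protease granzyme B, had less Rgs10, at 203 against 268 CPM, with a ratio of 0.757 (0.706 to 0.811), and 0.697 (0.610 to 0.794) at 2000 UMIs. Cells with a UMI of Tcf7, a transcription factor of naive and stem-like T cells, had more Rgs10 (361 against 227 CPM, ratio 1.59) and less Rgs16 (652 against 962 CPM, ratio 0.679), but at 2000 UMIs only 69 such cells were left and the Rgs10 ratio of 1.20 had an interval of 0.850 to 1.65. Cells with a UMI of Cd69, an early activation and retention marker, had less Rgs1 at both depths, with ratios of 0.840 and 0.802. In tumor Tdp cells, Rgs1 was higher in cells with 3 or more detected interferon response genes, at 241 against 185 CPM, or 1.30-fold (1.18 to 1.44), and 1.56-fold (1.20 to 2.01) at 2000 UMIs. The same split of tumor Cd4 cells gave 333 against 365 CPM, a ratio of 0.912 (0.788 to 1.05). At all UMIs, a UMI of Gzma, granzyme A, went with 1.21-fold (1.10 to 1.34) more Rgs1 and 0.885 times (0.840 to 0.933) the Rgs16 in Tdp cells. The ratios of that split at 2000 UMIs are not given here.

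The genes whose levels over the 6 labels were most like each member were found by the root mean square difference of centred log2 values over 5496 genes. For Rgs1 the nearest was Tnfrsf18, the costimulatory receptor GITR (difference 0.20), at 198 CPM in tumor Tdp, 429 in tumor Cd4, 236 in tumor Tcell, 67.8 in lymph node Cd8, 82.4 in lymph node Cd4 and 553 CPM in lymph node Treg cells, followed by Hivep3 and Ndrg1. Rgs2 was nearest to Tceal9, Mmgt2 and Med7, and Rgs10 to Faah, Kbtbd11 and Ski. Rgs16 had no close match: its nearest genes were Lgals3, which encodes galectin-3 (0.39), Havcr2, which encodes the inhibitory receptor TIM-3 (0.42), and Bhlhe40 (0.42). From cell to cell, the gene with the highest correlation with Rgs16 was Nr4a1, both over 2693 tumor Tdp cells (r = 0.24) and over 2451 tumor Cd4 cells (r = 0.18). For Rgs2, Nr4a2 was among the first 3 in both labels (r = 0.17 and 0.15), and for Rgs10 in tumor Cd4 cells Tcf7 came second (r = 0.12). The first genes for Rgs1 reached r of 0.10 in Tdp and 0.11 in Cd4 cells. These values are descriptions of cells that share a library.

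The table also held 8 other RGS genes. Rgs3, Rgs14 and Rgs19 were counted in the comparisons. Rgs19, a Gi regulator also called GAIP, was level, between 64.1 and 99.3 CPM in the 6 labels. Rgs14 lay between 27.3 and 69.3 CPM. Rgs3 was called higher in tumor Cd4 (59.0 CPM) and in lymph node Treg (63.6 CPM) than in lymph node Cd4 cells (25.8 CPM), but the first call was lost with the smaller total and the second with both other scalings. Rgs8, whose gene ends 42.7 kb from the start of Rgs16, was rare: it had 124 UMIs in tumor Cd4 and 68 in tumor Tdp cells and was listed at 0 in the whole lymph node library. Of the 96 tumor Cd4 cells with an Rgs8 UMI, 92 (95.8%) held Rgs16, against 88.1% of the shallower cells without Rgs8 (median 5495 against 6385.5 UMIs). The Rgs16 level of the Rgs8-positive cells was 999 CPM against 937 CPM in the cells without Rgs8, with a ratio interval of 0.984 to 1.15. In the 61 such Tdp cells it was 1080.1 against 891 CPM (1.11 to 1.32), but at 2000 UMIs, where 15 such cells were left, it was 567 against 938 CPM, a ratio of 0.604 (0.352 to 0.968). Rgs9, Rgs11, Rgs12 and Rgs18 stayed under 6 CPM in every label of more than 100 cells.

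The partners of the RGS proteins were read from the same sums. Over all counted genes, 14.8% were called higher and 6.21% lower in tumor Cd4 against lymph node Cd4 cells, and 11.4% and 5.13% in tumor Tdp against lymph node Cd8 cells. Of 17 listed G protein subunits, 10 were counted in tumor Cd4 against lymph node Cd4 cells, and 10 of these 10 lay above 0, with a median log2 ratio of 0.83 against 0.20 over all counted genes. With the smaller total, 10 of 11 lay above 0. Gna15, a Gq family alpha subunit of blood cells, was 85.6 CPM in tumor Cd4 and 1.00 CPM in lymph node Cd4 cells, and 52.0 CPM in lymph node Treg cells. Gng2, a gamma subunit, was 153 against 24.3 CPM. Gnai2, the main Gi alpha subunit of lymphocytes, was 317 against 212 CPM and not called. In tumor Tdp against lymph node Cd8 cells, 10 of 10 counted subunits lay above 0, with a median log2 ratio of 0.58 against 0.17 over all counted genes, and Gna15, Gng2 and Gng10 were called higher (3 of 10, beside 11.4% of all), while with the smaller total 9 of 10 lay above 0 and 2 were called.

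Receptors upstream of the RGS proteins differed in both directions. Among 20 chemoattractant receptors, 11 were counted in tumor Cd4 against lymph node Cd4 cells, of which 5 were called higher and 5 lower (beside 14.8% and 6.21% of all counted genes), with a median log2 ratio of −0.30. Ccr2 (151 against 0.445 CPM) and Cxcr6 (306 against 3.89 CPM), both receptors of inflamed tissue, were higher. Ccr7 (15.4 against 601 CPM) and Cxcr4 (1.22 against 49.9 CPM), which guide T cells in lymphoid tissue, were lower. Between tumor Tdp and Cd4 cells, of 8 counted receptors Ccr8 had the largest log2 ratio in size, at 4.77 against 89.0 CPM. Of 18 other G protein coupled receptors, 10 were counted in tumor Cd4 against lymph node Cd4 cells, with 3 called higher and 3 lower, beside the same shares. Adora2a, the Gs-coupled adenosine receptor, was 116 against 10.2 CPM, and Ptger2, a prostaglandin E2 receptor, was 40.0 against 0.556 CPM. Of 18 genes of receptor desensitization and effector enzymes, 10 were counted there and 2 were called, both lower (beside 6.21% of all counted genes): Pde4b, a cyclic AMP phosphodiesterase (80.2 against 354 CPM), and Plcb2, a phospholipase C (4.73 against 21.8 CPM).

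Of 13 receptor-signal and activation genes, 12 were counted in tumor Cd4 against lymph node Cd4 cells, and 3 were called higher and 1 lower, beside 14.8% and 6.21% of all counted genes. Tnfrsf9, which encodes 4-1BB, was 154 against 5.89 CPM, Nr4a2 was 493 against 34.9 CPM and Nr4a3 was 174 against 47.6 CPM. Fos was lower, at 142 against 442 CPM. In lymph node Treg against Cd4 cells, 12 of 12 counted genes of this list lay above 0 and 6 were called higher (beside 10.6% of all counted genes), among them Tnfrsf9 (312 against 5.89 CPM) and Dusp1, a MAP kinase phosphatase (817 against 383 CPM). With TMM scaling 2 of these calls were left and with the smaller total 3. Between tumor Tdp and Cd4 cells, where Rgs1 and Rgs10 were lower in Tdp cells, 3 of 12 counted genes of the list lay above 0 and 2 were called lower (beside 2.3% of all counted genes), Dusp1 (191 against 470 CPM) and Egr2, a receptor-induced transcription factor (11.4 against 27.9 CPM).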

How the data were processed

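All libraries were made with 10x Genomics 5′ chemistry, per the labels' protocols. Cell Ranger 3.1.0 and build mm10 are named, per the submitters' processing notes. The gene table is used as the authors deposited it, with UMI counts that were not normalized. The deposited annotation table holds other values per cell (library, label, receptor chains). How cells were labelled and which filters came first are details not given in the sources used here. The tumor library had 1768 genes without a UMI, and the lymph node library had 841.

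UMIs were summed over cells with Python 3.11.15, scaled to CPM and compared as log2 of CPM plus 1. Genes at 20 CPM or more on either side were counted and called at 2-fold. Receptor segments were left out of the counts of genes, as were the coreceptor genes that separate the labels. Intervals are exact (Poisson, Clopper-Pearson or conditional) at 95%. Cells were thinned to 2000 UMIs. TMM factors came from edgeR 4.0.16. No doublet caller was run, and an alternative left out the 5% of cells with most UMIs. The code for calls and intervals was run on simulated Poisson counts with planted changes. That run checks the code only and does not cover spread between cells or libraries.

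Members are named in every result. Other genes are list members at 20 CPM or more (first those past 2-fold, at most 6 per list and comparison), and the 3 genes most like each member by profile and by cell. The members and lists were chosen with earlier results of these data known.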

Additional observations from a re-analysis of the deposited data

Results flagged for a closer look

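Rgs2 moved in opposite directions in the tissues under the same split by coreceptor UMIs, although the split sets apart different cells in each. Cells with Cd8a or Cd8b1 UMIs but no Cd4 UMI were set against cells with Cd4 UMIs alone. All 4 members were screened, and Rgs2 is given because its intervals fell on opposite sides of 1. The classes ignore the labels, so lymph node Treg cells, with 207 CPM of Rgs2 against 117 CPM in Cd4-labelled cells, can enter them. In the tumor, Rgs2 was 143 CPM in 694 of the former and 121 CPM in 2044 of the latter, a ratio of 1.18 (1.06 to 1.30). In the lymph node it was 64.3 CPM in 2755 and 133 CPM in 1049 cells, a ratio of 0.484 (0.440 to 0.532). In the tumor, 554 of the 694 cells were Tdp-labelled, and only 1 tumor cell bore the Cd8 label. A transgenic receptor chain was called in 5540 of 5570 tumor cells and in 0 lymph node cells. With 1 library per tissue, the difference between these ratios was not tested.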

How the results depend on the processing

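The 24 member ratios were recomputed under other settings, giving 308 values. No called ratio changed sign, 251 values stayed within the counting interval and 7 calls changed. Those were Rgs2 in tumor Tdp against lymph node Cd8 cells (not called with a pseudocount of 10 or with receptor, mitochondrial and ribosomal protein genes left out of the total), Rgs10 in tumor against lymph node Cd4 cells (called lower with that total) and over the libraries (called lower with that total and with TMM), and Rgs16 in lymph node Cd8 against Cd4 cells (log2 ratio 1.26, called higher with no CPM minimum, and 1.36 with that total). Of 77 gene counts, 62 stayed within 1.5 times. With no CPM minimum, 533 genes were called in tumor Tdp against Cd4 cells in place of 168, 2399 in place of 1077 in Cd4 cells across tissues, 1884 in place of 800 in tumor Tdp against lymph node Cd8, 1947 in place of 621 in lymph node Treg against Cd4, 556 in place of 161 in lymph node Cd8 against Cd4, and 1889 in place of 829 over the libraries. With a minimum of 50 CPM the counts were 92, 619, 464, 330, 71 and 479, in the same order. These settings change which genes are counted. A pseudocount of 10 gave 110 in tumor Tdp against Cd4 and 107 in lymph node Cd8 against Cd4 cells, and the smaller total gave 256 in the latter.

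The smaller total moved the median of all counted genes from 0.20 to −0.16 in Cd4 cells across tissues, from 0.17 to −0.20 in tumor Tdp against lymph node Cd8 and from 0.16 to −0.18 over the libraries. The calls there went from 758 higher and 319 lower to 637 and 794, from 552 and 248 to 434 and 663, and from 571 and 258 to 475 and 638. In lymph node Treg against Cd4 cells, 548 higher and 73 lower became 313 and 166 with TMM and 475 and 234 with the smaller total. In tumor Tdp against Cd4 cells, 57 and 111 became 74 and 90 with TMM.

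Of 80 member ratios in splits by a marker gene, repeated at 2000 UMIs, 23 changed side of 1. Leaving out cells with 2 or more UMIs of other cell types removed 30.0% of tumor Tdp and 23.7% of tumor Cd4 cells, nearly all for Cst3, so that filter was also run without Cst3. That run and the omission of the top Rgs16 cell and of genes at 0 in a library were chosen after seeing the data. So were the splits by Foxp3, Rgs8 and coreceptor UMIs and by the number of Nr4a genes. The promoter stretches and their string matches were also added then. No paired analysis was possible because each group has 1 RNA library, so no replicate was left out. Lymph node Rgs16 is limited by depth: 40 UMIs in 1873 Cd4 cells.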

Other observations

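The level of Rgs16 was lower in deeper tumor cells. When tumor Cd4 cells were ordered by total UMIs and cut into 4 equal groups, it was 1127 CPM in the shallowest and 817 CPM in the deepest group. In tumor Tdp cells it was 1011 and 798 CPM. Rgs1 in tumor Cd4 cells went the other way, from 342 to 390 CPM. Lymph node Cd8 cells with a UMI of Eomes, a factor of memory and cytotoxic cells, had less Rgs10 at all UMIs, at 247 against 340 CPM. The ratio was 0.728 (0.681 to 0.777), and at 2000 UMIs it was 0.847 with an interval of 0.699 to 1.02. In lymph node Treg cells, a Cd69 UMI went with less Rgs10 at both depths, with ratios of 0.619 (0.523 to 0.735) and 0.767 (0.595 to 0.993).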
